A study of Canis lupus familiaris with 6 samples.

Results

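CDH2 and CDH11 encode N-cadherin and cadherin-11, cell surface proteins that join neighbouring mesenchymal cells. On the canine array used here they were read by 4 of 42860 probe sets, 2 for each gene, taken as every probe set annotated to one of these genes alone (gene IDs 480169 and 479696). They are 2 of 15112 genes with such a probe set. Both genes were chosen on the same measured values described here, with CDH2 known to be at least 2-fold higher with beta-TCP on all 3 days, so their own differences are a description and were given no test. The specimens were bone cylinders from mandibles of beagle dogs aged 9 years, from holes of 4.5 mm diameter and 8 mm length drilled 3 months after extraction of premolars. A hole was left without implant (control) or received beta-TCP, beta-tricalcium phosphate, a resorbable ceramic used as a bone substitute, and was sampled at day 4, 7 or 14. Each of the 6 groups (control and beta-TCP at each day) held 1 array, so no value has a replicate error. The sources used here do not say how many dogs there were or which specimens came from the same dog. Each specimen is a mixture of cells, and fewer cells of a type cannot be told apart from less RNA per cell.

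Classical cadherins hold cells together through calcium-dependent contacts between their outer domains, while their tails bind beta-catenin or plakoglobin and, through alpha-catenin, the actin cytoskeleton. They are divided into type I, which includes N-cadherin, and type II, which includes cadherin-11. Both are the cadherins best known from the osteoblast lineage, where they take part in the contacts between bone-forming cells and, by binding beta-catenin, touch Wnt signalling. N-cadherin is also known from neurons, muscle and vessels, and cadherin-11 from fibroblasts of many tissues.

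Levels are given as the probe set's value divided by the median of all probe sets on the same array, so that 1 marks that median. This division was needed because days 4 and 7 were deposited already divided, with a median of 1, while day 14 was deposited undivided with medians of 12.0 (control) and 6.2 (beta-TCP). Differences are in log2 of the divided level plus 1, beta-TCP minus control unless stated, and a gene is counted as higher or lower when it differed at least 2-fold on that scale. The beta-TCP array of day 14 stood apart from the rest, with Spearman correlations of 0.723 to 0.779 against 0.832 to 0.905 among the other 5. Day 14 was deposited on another scale, so time and processing cannot be told apart wherever day 14 is set against an earlier day.

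CDH2 was higher with beta-TCP than in the control on each day on its brighter probe set (of the CfaAffx name type). At day 4 its level was 1.53 in the control and 4.34 with beta-TCP, a log2 difference of 1.07. At day 7 it was 4.52 and 47.1, a log2 difference of 3.12. At day 14 it was 9.90 and 29.1, a log2 difference of 1.47. The day 7 beta-TCP array carried the highest level of the 6 and the day 4 control array the lowest, 30.7-fold apart. In levels, the ratio of beta-TCP to control was 2.83 at day 4, 10.4 at day 7 and 2.94 at day 14. The percentages of genes at least 2-fold higher on these days were 4.52, 2.96 and 3.47 of the 10530 kept. CDH2 ranked 365th, 9th and 86th from the top. Nothing is read from these ranks, since the values chose the gene.

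The dimmer probe set of CDH2 (of the Cfa name type) read above the array median on 1 of 6 arrays and was below the filter on mean level. Its levels were 0.316 (control) and 0.0620 (beta-TCP) on day 4, 0.156 and 1.53 on day 7, and 0.175 and 0.790 on day 14. The arrays with the highest levels were therefore beta-TCP at days 7 and 14, as on the brighter probe set, but at day 4 the order was the opposite. The log2 differences were -0.31, 1.13 and 0.61, and the ratios of the levels at days 7 and 14 were 9.86 and 4.52. With no detection calls in the data used here, whether the lowest of these levels lie above background was not tested. The day 4 difference of CDH2 therefore rests on the brighter probe set, and the mean of both probe sets gave 0.38. On the brighter probe set it was under 2-fold with 90th percentile scaling (0.91), less the median of all kept genes (0.90) or of the same probe set type (0.99), and with a pseudocount of 4 (0.59).

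CDH11 was higher with beta-TCP at days 4 and 7 and lower at day 14, on both of its probe sets. On the brighter one (both are of the Cfa name type) the level was 34.4 in the control and 88.6 with beta-TCP at day 4. The day 7 levels were 89.5 and 236.9, and the day 14 levels 364.5 and 267.3. The log2 differences were 1.34, 1.39 and -0.45, so that day 14 fell short of 2-fold. Among the 10530 kept genes they ranked 126th, 136th and 6468th from the top, given as a description. This probe set lay between the 95.2 and the 99.4 percentile of its array on all 6 arrays.

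The dimmer CDH11 probe set read 7.52 (control) and 13.0 (beta-TCP) on day 4, 10.8 and 35.1 on day 7, and 25.3 and 10.8 on day 14. Its log2 differences of 0.71, 1.61 and -1.16 had the same signs as those of the brighter one. At day 4 it stayed under 2-fold, and at day 14 it passed 2-fold on the lower side, where 15.4% of all kept genes lay. The median of all kept genes was 0.17 at day 4, -0.08 at day 7 and -0.23 at day 14. With quantile normalization the day 14 difference on the brighter probe set was -0.06, and on the dimmer one -0.71. Both CDH11 probe sets carry the suffix for probes that can match transcripts of more than 1 gene. A share of their signal from another transcript was not tested.

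**Figure D1:**
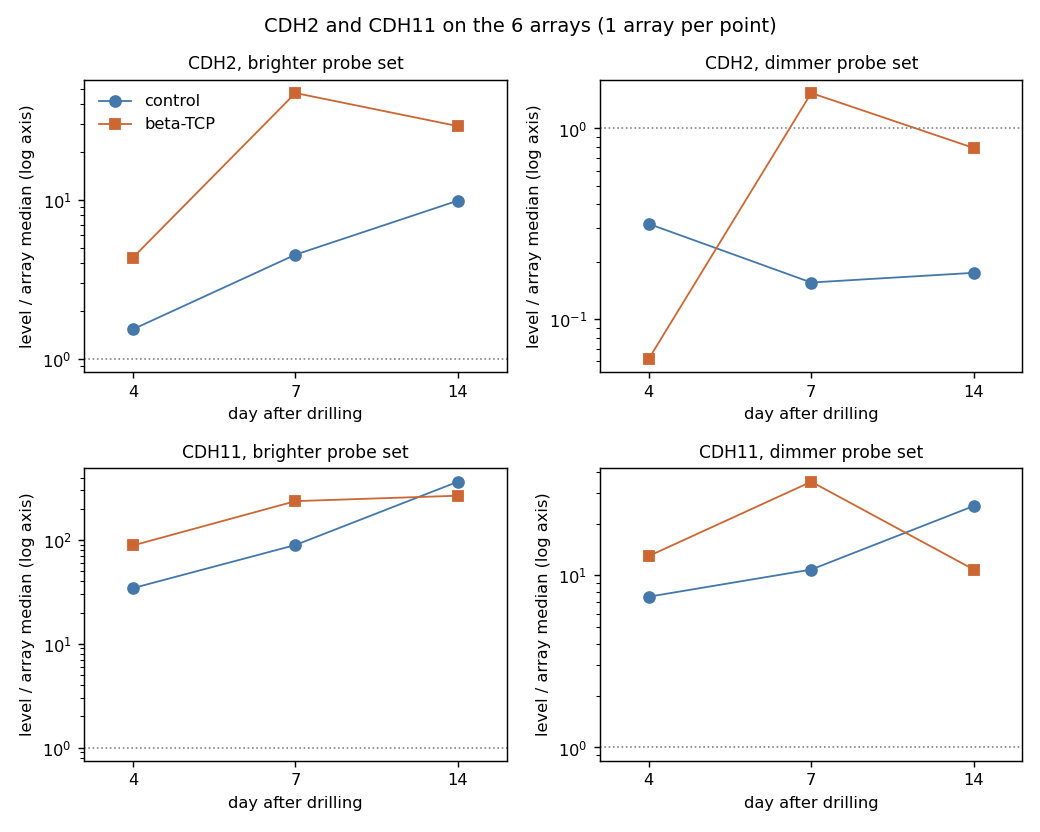
Level of each probe set divided by the array median (log axis) against day, for control (circles) and beta-TCP (squares), 1 array per point, with the dotted line at the array median. On the brighter CDH2 probe set the beta-TCP squares lie above the control circles on all 3 days (47.1 against 4.52 at day 7), while on both CDH11 probe sets the order turns at day 14.

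Set out by time, the control arrays gave the same order on 3 of the 4 probe sets. CDH2 on its brighter probe set read 1.53, 4.52 and 9.90 at days 4, 7 and 14 without implant. CDH11 read 34.4, 89.5 and 364.5 on its brighter and 7.52, 10.8 and 25.3 on its dimmer probe set. The dimmer CDH2 probe set, below the median on all 3 control arrays, did not follow this order.

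With beta-TCP the highest level lay at day 7 on 3 of the 4 probe sets. CDH2 moved from 4.34 at day 4 to 47.1 at day 7 and 29.1 at day 14. CDH11 on its dimmer probe set read 13.0, 35.1 and 10.8, whereas on its brighter one day 14 (267.3) lay above day 7 (236.9). For CDH11 the level with beta-TCP at day 4 (88.6) and that of the control at day 7 (89.5) were nearly equal on the brighter probe set. For CDH2 the same 2 arrays read 4.34 and 4.52. With 1 array per group, which neighbours in these orders differ beyond the spread between specimens was not measured.

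Between days 4 and 14 the log2 difference of CDH2 was 2.10 in the control and 2.50 with beta-TCP on the brighter probe set. That of CDH11 was 3.37 and 1.58. All 4 passed 2-fold on the higher side, as did 18.6% of kept genes in the control and 9.72% with beta-TCP. The dimmer probe sets gave -0.16 and 0.75 for CDH2 and 1.63 and -0.24 for CDH11, so the direction of CDH2 in the control and of CDH11 with beta-TCP depended on the probe set.

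**Figure D2:**
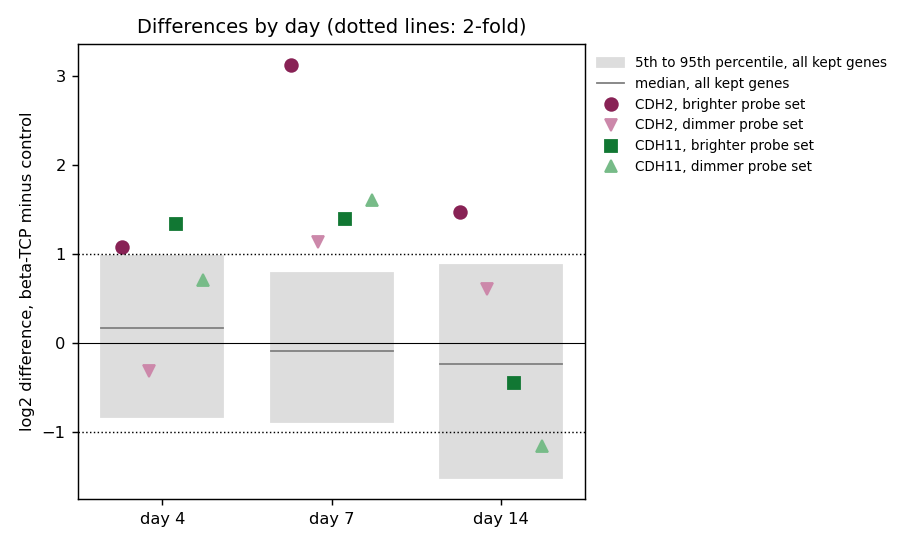
Log2 difference of beta-TCP minus control on each day for the 4 probe sets, with grey boxes from the 5th to the 95th percentile of all kept genes, a grey line at their median and dotted lines at 2-fold. The brighter CDH2 probe set lies above the box on all 3 days (1.07, 3.12 and 1.47), and both CDH11 probe sets lie inside it at day 14 (-0.45 and -1.16).

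A comparison of the genes within the same arrays does not depend on how arrays are scaled when no pseudocount is used. At day 4 both genes differed by a like amount, and the difference of CDH2 less that of CDH11 was 0.13 without pseudocount (-0.27 with a pseudocount of 1). On day 7 the same value was 1.98 and on day 14 it was 2.01, close to a 4-fold shift of CDH2 relative to CDH11 on each day (3.93 and 4.01). Against the dimmer CDH11 probe set these values were 0.71, 1.68 and 2.78. With the dimmer CDH2 probe set in place of the brighter one, and a pseudocount of 1, they were -1.65, -0.26 and 1.05. Without pseudocount the dimmer CDH2 probe set gave -3.72, 1.90 and 2.62. Whether it showed the shift at day 7 therefore depended on the pseudocount. A ratio within an array shows unequal differences, not which of the 2 genes differed.

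**Figure D3:**
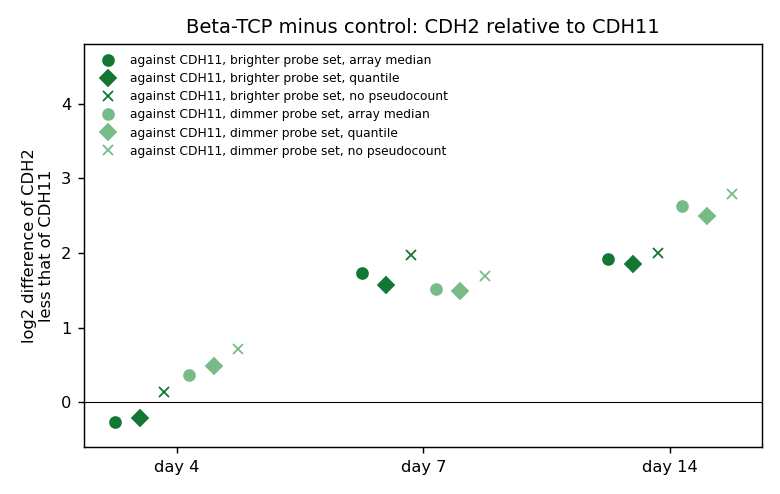
Log2 difference of CDH2 (brighter probe set) less that of CDH11, beta-TCP minus control, by day, against each CDH11 probe set and with array median scaling, quantile normalization or no pseudocount. The points lie around 0 at day 4 (-0.27 to 0.71), between 1.49 and 1.98 at day 7 and between 1.85 and 2.78 at day 14.

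Most of the other classical cadherins lay below the filter on mean level. Of 4 other type I genes in the list, 3 had a probe set of their own and 2 passed the filter, and of 12 other type II genes 12 and 2. The 11 below the filter had highest levels of 0.0968 to 1.37 on any array. CDH1, which encodes E-cadherin of epithelia, was among them, with at most 0.774. P-cadherin (CDH3) differed by -0.25, 0.05 and 0.06 on days 4, 7 and 14, and CDH15, the cadherin of muscle precursors, by 0.21, 0.54 and 0.23.

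The 2 remaining cadherins above the filter passed 2-fold on some days. CDH5, the VE-cadherin of endothelium, read 2.79 (control) and 0.764 (beta-TCP) on day 4, 1.16 and 0.763 on day 7, and 0.742 and 2.58 on day 14. Its differences were -1.10, -0.30 and 1.04, so its sign at day 4 was the opposite of that of CDH2 and CDH11 on their brighter probe sets. Of the 4 CDH5 probe sets 1 passed the filter. Among 8 kept endothelial markers, CDH5 included, 6 had a difference above 0 at day 4. CDH22 differed by 0.42, -1.32 and -0.20. In RefSeq's annotation of UU_Cfam_GSD_1.0, from which only the order of genes was taken, CDH11 lies between CDH5 and CDH8, and CDH8 had levels of 0.0320 to 0.375. The genes nearest to CDH2 on one side are those of the desmosomal cadherins DSC1, DSC2 and DSC3.

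The catenins that link cadherins to actin stayed under 2-fold on all 3 days on the probe set standing for each gene. Beta-catenin (CTNNB1), which binds the cadherin tail, had levels of 196.7 to 219.9 on the arrays of days 4 and 7, then 424.1 in the control and 215.7 with beta-TCP at day 14. Its differences were 0.02, 0.15 and -0.97, and its other probe set gave 0.86, -0.04 and -2.21. Alpha-catenin (CTNNA1), the link to actin, differed by 0.18, -0.01 and -0.10, and other probe sets of it reached 0.78 at day 7 and -0.98 at day 14. The p120 catenin gene CTNND1, which holds cadherins at the membrane, differed by -0.26, -0.32 and 0.18, and plakoglobin (JUP), the relative of beta-catenin, by -0.40, -0.11 and 0.67. The signs of both were not shared by their other probe sets above the filter on all days, which gave 0.38, 0.14 and 0.56 for CTNND1 and 0.01, 0.15 and -0.05 for JUP.

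Among all 16 kept genes of catenins and junction partners, 3 passed 2-fold on the higher side at day 4 and 0 on the lower, against 4.52% and 3.1% of all kept genes. They were GJA1 (1.58), the connexin 43 gene of osteoblast gap junctions, the actin-binding gene LIMA1 (1.35) and the FGF receptor gene FGFR1 (1.13). At day 7, 2 were higher and 0 lower, against 2.96% and 3.44%, GJA1 (1.30) and the receptor phosphatase gene PTPRF (1.17). At day 14, 0 were higher and 3 lower, against 3.47% and 15.4%, PTPRF (-1.60), NECTIN2 (-1.62) and NECTIN3 (-1.40), the last of which encode adhesion molecules of the nectin family. With beta-TCP at day 14 PTPRF, NECTIN2 and NECTIN3 read 0.226, 0.403 and 0.145, all below the array median. In the control of that day they read 2.72, 3.31 and 2.025. The list's medians were 0.48, 0.19 and -0.21.

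GJA1 had the same order of signs as CDH11. Its level was 3.71 (control) and 13.1 (beta-TCP) on day 4, 6.81 and 18.2 on day 7, and 9.56 and 5.71 on day 14. Its other probe set gave 0.96, 1.36 and -0.70, against 1.58, 1.30 and -0.65 on the one just given.

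Genes for cleavage and maturation of cadherins stood near the median of all genes at days 4 and 7, with 0 of 8 at least 2-fold apart on either day. ADAM10, the protease known to shed N-cadherin from the cell surface, differed by -0.13, -0.15 and -1.09. At day 14, 3 genes were lower, ADAM10, ADAM9 (-1.18) and APH1A (-1.48), a subunit of gamma-secretase, and 1 was higher, ADAM15 (1.14), where 15.4% of all kept genes were lower and 3.47% higher. The other ADAM15 probe set lay at -1.31, that of ADAM10 at -0.21, and of the other ADAM9 probe sets 1 lay at -0.12. Presenilin 1 and ADAM17, in the same list, were not measured by a probe set of their own.

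Of 8 kept genes for factors and markers of the mesenchymal state, 2 passed 2-fold on the higher side at day 4 and 0 on the lower, where 4.52% and 3.1% of all kept genes did. These were SNAI2 (1.20), a repressor of E-cadherin, and TWIST1 (1.31), a regulator of cadherin genes in mesenchyme. SNAI2 read 44.7 (control) and 104.1 (beta-TCP) on day 4, 75.2 and 124.8 on day 7, and 159.3 and 145.5 on day 14. TWIST1 read 0.236 (control) and 2.07 (beta-TCP) on day 4, and 2.45 and 0.0484 on day 14, so 1 array of each pair lay below the array median. Its day 7 difference was 0.17 and its day 14 difference -1.72. At day 14 TWIST1 was the 1 gene of the list at least 2-fold lower (15.4% of all kept genes were), and 0 were higher (3.47%). At day 7, 0 were higher and 0 lower (2.96% and 3.44% of all). SNAI1, ZEB1, VIM and FN1 stayed under 2-fold on all 3 days on the probe set standing for the gene. Other probe sets of FN1 reached 1.02 at day 4 and 2.08 at day 14, and those of ZEB1 reached -1.09 at day 14.

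**Figure D4:**
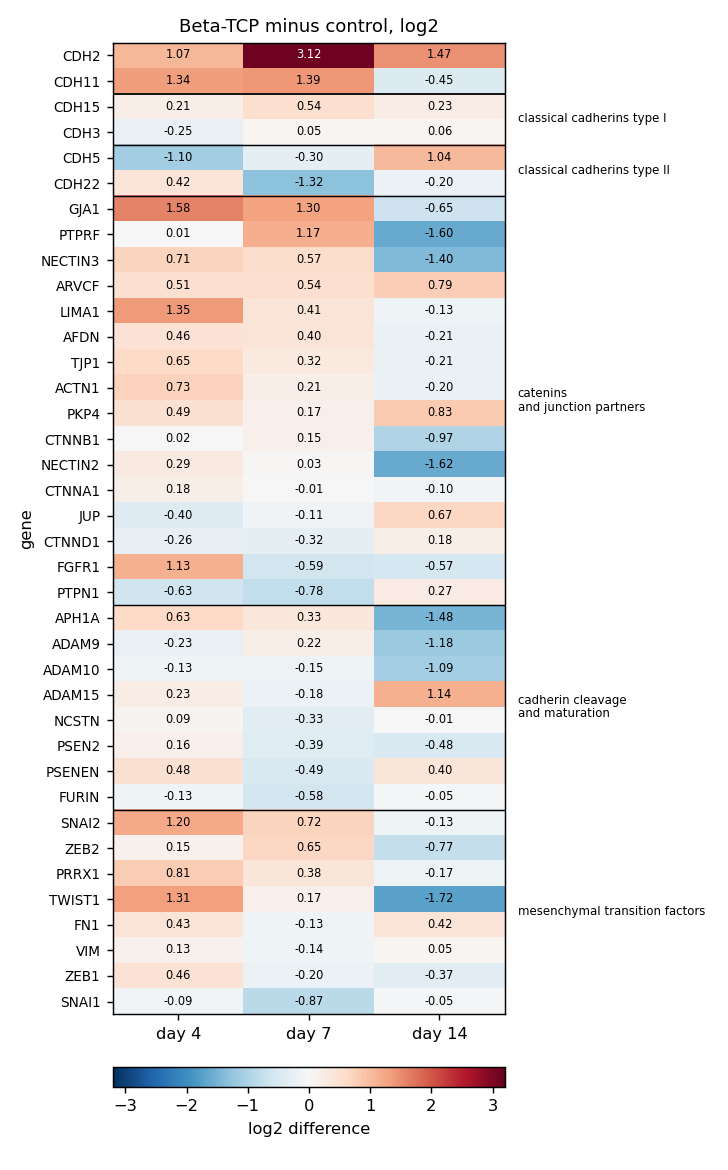
Log2 differences of beta-TCP minus control by day (columns) for CDH2 and CDH11 on their brighter probe sets and for the 36 other kept genes of the cadherin, catenin, cleavage and transition lists (rows, each cell printed with its value). CDH2, chosen on these values, has the highest value shown (3.12 at day 7). The lists have more blue cells at day 14 than at day 4, and the median of all kept genes was also lower at day 14 (-0.23 against 0.17).

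The average beta-TCP effect over the 3 days was tested for these 36 genes in a limma fit with day and treatment as additive terms over the 10530 kept genes. With 1 array per group, the residual of this fit mixes day by treatment differences with array and animal differences. Its SE and p-values therefore do not measure the spread between specimens alone. None of the 36 passed an adjusted p of 0.05, and none had an unadjusted p under 0.05. In the same fit 0 of 10530 genes passed (0%), with 513 at an unadjusted p under 0.05. ARVCF, a catenin of the p120 family, is named as the gene of lowest unadjusted p among the 36. Its effect was 0.61 ± 0.30 (SE, 2 residual degrees of freedom), higher on 3 of 3 days, with a limma adjusted p of 0.9998. Its 1 probe set read 0.408, 0.754 and 0.583 in the control at days 4, 7 and 14. These levels lay below the array median, and the highest on any array was 1.74. Without the day 14 arrays, on 1 residual degree of freedom, 1 of the 36 passed in limma (GJA1, on the higher side, adjusted p = 0.00557). Over all kept genes 220 passed in that fit (2.09%), so 1 of 36 is near the share of all genes. The day left out was the one on which GJA1 was lower with beta-TCP (-0.65).

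By Pearson correlation of log2 levels over the 6 arrays, the 5 named genes most like CDH2 among 6672 with a range of at least 1 were RRAD (0.984), LRRN1 (0.984), FAM189A2 (0.975), PRR15 (0.973) and CHN1 (0.971). RRAD (levels of 0.244 to 2.73), LRRN1 (0.144 to 1.43) and PRR15 (0.0579 to 3.60) lay below the array median on some arrays. CHN1 read 9.94, 17.0 and 33.8 on the control arrays and 17.5, 50.0 and 50.7 on the beta-TCP arrays of days 4, 7 and 14. The 5 most like CDH11 were GAS6 (0.992), DYNLRB2 (0.991), TMEM98, SEC31A and EDARADD (each 0.990). GAS6, a ligand of TAM receptors, read 3.01, 9.56 and 30.5 in the control and 8.41, 17.1 and 20.9 with beta-TCP. CDH2 and CDH11 correlated at 0.818 with each other. CDH11 ranked 244th in likeness to CDH2, and CDH2 846th in likeness to CDH11. These are 6 points that share day and treatment, given as a description.

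Markers of the cells in these specimens were read from lists beside the cadherins. Of 11 kept osteoblast markers, 3, 5 and 3 were at least 2-fold higher on days 4, 7 and 14 on the probe set standing for each gene. On these probe sets 0 were lower on any day, with medians of 0.25, 0.94 and 0.65. Of all kept genes, 4.52%, 2.96% and 3.47% were higher and 3.1%, 3.44% and 15.4% lower on these days. Other probe sets reached 1.65 and 1.79 (COL1A1), 1.28 and 1.86 (COL1A2) and 1.94 and 2.10 (SPARC) on days 4 and 7. At day 14 other probe sets lay at -3.07 (SPARC) and -1.36 (COL1A1), and at 1.19 (COL1A2) and 1.14 (SPP1). ALPL, the alkaline phosphatase of osteoblasts, differed by 1.39, 1.88 and -0.01, but its other probe set gave 0.01 at day 4 and -0.71 at day 14. PTH1R differed by 0.77, 2.56 and 0.33. RUNX2, the transcription factor of the lineage, differed by -0.07, 0.15 and -0.34. Of 8 fibroblast and progenitor markers, 4, 1 and 0 were higher and 0, 0 and 4 lower (THY1, DCN, POSTN and FAP at day 14), with medians of 1.04, 0.19 and -0.67. Their sum of levels was 972 (control) and 1586 (beta-TCP) on day 4, 2059 and 2179 on day 7, and 3323 and 3208 on day 14. The part of any cell type in the CDH2 and CDH11 differences was not tested.

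Markers of other cell types, some of them known sources of N-cadherin, were also read, as were reference genes. Counts were taken on the probe set standing for each gene. They stand beside the same shares of all kept genes (4.52%, 2.96% and 3.47% higher, 3.1%, 3.44% and 15.4% lower on days 4, 7 and 14). Of 4 kept chondrocyte markers, 2, 3 and 2 were higher and 0 lower, with sums over the 7 measured of 6.22 and 12.8, 14.0 and 41.2, and 23.5 and 31.2 in control and beta-TCP on days 4, 7 and 14. SOX9 and COL2A1 among them were below the filter. Of 7 smooth muscle and pericyte markers, 4, 2 and 1 were higher and 0 lower, with sums of 122 and 295, 462 and 503, and 770 and 1073. Of 8 endothelial markers, 2, 0 and 2 were higher and 1, 1 and 0 lower, with sums of 77.8 and 163, 375 and 269, and 263 and 350. The 6 measured Schwann and nerve markers summed to 5.07 to 11.2 and the 6 measured skeletal muscle markers to 4.61 to 8.24 on any array. Of these 2 lists, 3 and 2 genes passed the filter. Epithelial markers summed to 140.8 on the day 4 control array and to 9.44 to 21.8 on the other 5. On the epithelial list 5 of 6 kept genes were at least 2-fold lower with beta-TCP at day 4. Of 8 macrophage and osteoclast markers, 0, 0 and 4 were higher and 0, 5 and 2 lower, with medians of -0.06, -1.14 and 1.001. Of 9 reference genes, 0 were higher on any day and 0, 0 and 3 lower, with medians of 0.03, -0.09 and -0.72. The part of these cells in the differences was not tested either.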

How the data were processed

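RNA from 6 mandibular bone specimens was hybridised to an Affymetrix canine array, from 100 ng of total RNA per the labels' protocols. The authors deposited 42860 probe sets. For days 4 and 7 the deposited signal is already relative to each array's median, and for day 14 an undivided intensity, as read from the values. The software behind them is not given in the sources used here. Each array was divided by its median and log2(value + 1) was taken (fold changes of low genes are understated). A probe table gave 1 gene for 29254 probe sets, and by gene ID 27680 matched RefSeq (UU_Cfam_GSD_1.0, names only). Left out were 180 probe sets whose names form _a_at and _at pairs. Each of 15112 genes was read on its brightest probe set by mean, and 10530 at or above the 40th percentile of mean level were kept. The average effect was fitted with limma 3.58.1 (R 4.3.3, lmFit, eBayes, Benjamini-Hochberg, two-sided). The code was run on simulated data with independent noise and effects constant over days. That run does not cover effects that differ by day, as in these data. Named are all CDH2 and CDH11 probe sets, list members 2-fold apart or core, and the 5 genes most like each. ARVCF was named for its p in the fit. The members and lists were chosen with earlier results of these data known. The number of arrays limits precision. Alternatives were quantile and 90th percentile scaling, centring, pseudocounts of 0.25 and 4, other probe sets, no filter and leaving out a day.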

Additional observations from a re-analysis of the deposited data

Results flagged for a closer look

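The beta-TCP minus control difference had opposite signs on different days on 3 of the 4 probe sets. This was not tested, with 1 array per group. On the brighter CDH11 probe set day 14 lay below day 4 by a log2 difference of -1.79 and below day 7 by -1.84. On the dimmer CDH11 probe set these values were -1.87 and -2.76. The day 14 difference itself was -0.45 on the brighter CDH11 probe set, and -0.01 with 90th percentile scaling. On the dimmer CDH2 probe set, read below the array median on 5 of 6 arrays, day 7 lay above day 4 by 1.44 and day 14 above day 4 by 0.92.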

How the results depend on the processing

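Of 102 alternative values, 78 stayed within 1.5-fold of the main value or on its side of the threshold. The 90th percentile scaling, quantile normalization, a pseudocount of 0.25 and centring on the median of all kept genes or of the same probe set type (the last chosen after seeing the data) moved none of the CDH2 and CDH11 differences by over 1.5-fold. The CDH2 difference of day 4 (1.07) nonetheless fell short of 2-fold with 90th percentile scaling (0.91), both centrings (0.90 and 0.99) and a pseudocount of 4 (0.59), and was 1.0002 with quantile normalization. The CDH11 difference of day 14 (-0.45) came near 0 with 90th percentile scaling (-0.01) and quantile normalization (-0.06), and was -0.22 less the median of all kept genes. A pseudocount of 4 gave 1.33 for CDH2 between days 4 and 14 in the control. The other probe set gave -0.31, 1.13 and 0.61 for CDH2 on days 4, 7 and 14, and 0.71 and -1.16 for CDH11 on days 4 and 14. Between days 4 and 14 it gave -0.16 (control) and 0.75 (beta-TCP) for CDH2 and 1.63 and -0.24 for CDH11. The mean of both probe sets gave 0.38 and 2.13 for CDH2 on days 4 and 7. Between days 4 and 14 it gave 0.97 and 1.63 for CDH2 and 2.50 and 0.67 for CDH11. CDH2 less CDH11, an alternative chosen after seeing the data, was 0.36 and 2.62 on days 4 and 14 with the other CDH11 probe set. With the other CDH2 probe set it was -1.65, -0.26 and 1.05 on the 3 days, and -3.72, 1.90 and 2.62 without pseudocount. In limma's fit 1 of 36 partner genes passed without the day 14 arrays, as did 220 of 10530 genes in all. Under the other 6 alternatives 0 of 33 to 54 passed, and 0 to 4 had an unadjusted p under 0.05. No replicate could be left out within a group, and no detection calls show how far the dimmer CDH2 signal lies above background.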
